A study of Mus musculus with 48 samples.

Results

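This account covers mouse submandibular salivary gland organoids 6 days after a single photon dose of 15 Gy, set against non-irradiated organoids of the same photon series and day. The comparison was chosen by the sample titles alone, which give 3 libraries at 15 Gy and 3 control libraries, 6 of the 48 libraries in the series. Every gene in the count files was described, 47643 identifiers in all, of which 20004 had at least 1 count in the 6 libraries and 11308 passed a filter on low counts and were tested. The series as a whole exposed such organoids to photons or protons at 4, 7 or 15 Gy and collected them 2 or 6 days later. Each radiation type and day had controls of its own.

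The 15 Gy group held organoids grown from the gland cells of C57BL/6 mice of 8 to 12 weeks, irradiated with 15 Gy of photons on day 5 of culture and collected 6 days after that. The control group held organoids of the same strain, age and day that were not irradiated. Both groups, and all the others in the series, grew in Matrigel in the same medium, which contained EGF, FGF2, N2, insulin, dexamethasone, the ROCK inhibitor Y27632, and media conditioned with R-spondin1 and Wnt3a, and it was refreshed after irradiation. Organoids of this kind are built by gland cells that divide in culture, and the vessels, nerves and circulating cells of the gland are not part of the culture. The mouse number in each title was read as 1 animal per library, 3 in each group. RNA was sequenced from the 3′ ends of polyadenylated messages (QuantSeq), so a level reports the number of messages and is not divided by gene length.

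Interferons are secreted proteins that signal through paired cell surface receptors and Janus kinases to transcription factors of the STAT and IRF families, which switch on a large set of antiviral genes. Ionising radiation is also known to activate p53, which turns on genes of cell cycle arrest, DNA repair and death, among them its own inhibitor Mdm2. Epithelia that line the mouth and ducts can enter a squamous programme of suprabasal keratins and cornified envelope proteins, and cells that need cholesterol make it through the mevalonate pathway under the control of the sterol-sensing factor SREBP2.

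The 15 Gy libraries held 2836857, 4745719 and 3738923 counts on genes in mice 1, 2 and 3, and the controls held 4476994, 2377331 and 3457279. Log2 levels correlated at 0.983 to 0.986 among the 15 Gy libraries, at 0.955 to 0.975 among controls and at 0.929 to 0.962 between the groups. Control mouse 2, the shallowest of the 6, lay farthest out on the first principal component, at -28.88 against -11.05 to -13.73 for the other controls and 16.1 to 20.64 for the 15 Gy libraries. Levels are given in CPM, a gene's count per library scaled to a common library size after normalisation. Mitochondrial genes took 6.81 to 7.01% of counts at 15 Gy and 6.02 to 7.63% in controls, ranges that overlap. One 4 Gy library, that of mouse 3, which entered the fit only to estimate the spread, held 314409 counts. The groups were spread by mouse more widely in controls than at 15 Gy. The p-values rest on a spread estimated jointly from these libraries and the lower photon doses of the same day. They therefore do not measure the spread between the compared animals alone.

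After 15 Gy, 285 genes were higher and 313 were lower than in controls at an adjusted p under 0.05 (edgeR quasi-likelihood F test, Benjamini-Hochberg over all 11308 genes), which is 2.52% and 2.77% of the genes tested and 5.29% in all. At an unadjusted p under 0.05 there were 1957. The higher genes had a median log2 fold change of 1.26, and 76 of them exceeded 2, a 4-fold difference. The lower genes had a median of -1.07, with 40 beyond -2. All 285 higher genes had every 15 Gy library above every control, as did 13.1% of all genes tested, and 310 of the 313 lower genes had every 15 Gy library below every control, as did 13.6% of all genes tested. Without the 15 Gy library of mouse 2 the counts fell to 146 higher and 125 lower, and without control mouse 1 to 178 and 186. The lower count fell to 176 without 15 Gy mouse 1 and to 198 without 15 Gy mouse 3. Without the shallow 4 Gy library of mouse 3 the counts were 458 and 567.

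**Figure D1:**
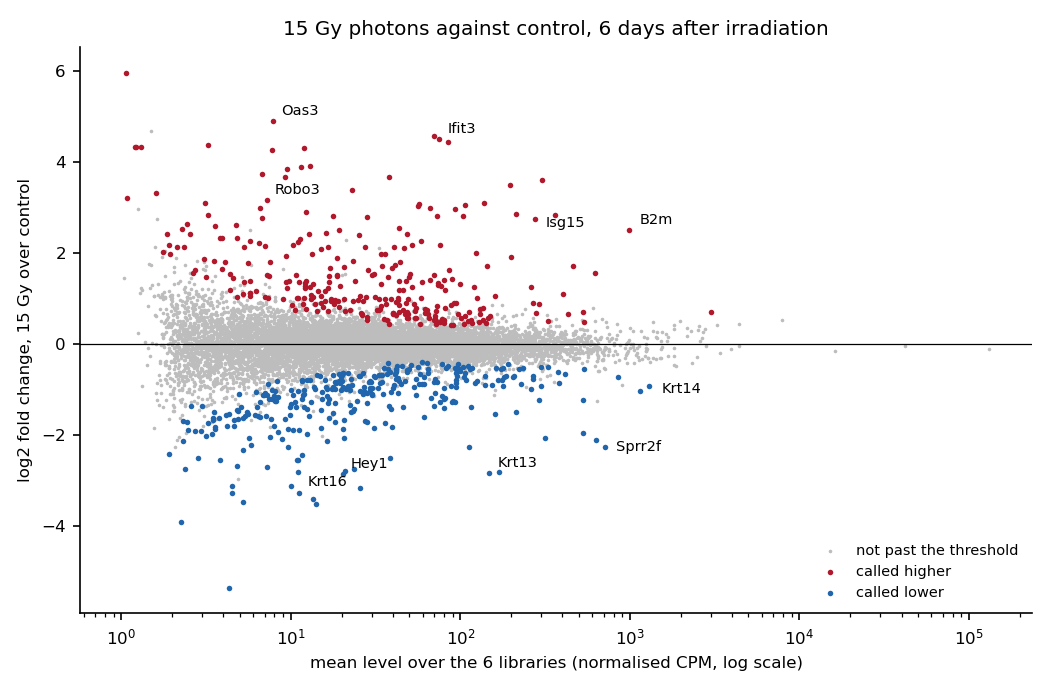
Log2 fold change of 15 Gy over control (vertical axis) against the mean level over the 6 libraries in normalised CPM (horizontal axis, log scale) for the 11308 genes tested. The 285 genes called higher are red, the 313 called lower are blue and the rest are grey; the interferon-stimulated genes Oas3, Ifit3 and Isg15 lie at the top, and the keratins Krt13 and Krt16 at the bottom.

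Of the lists with at least 5 genes tested, the interferon-stimulated genes had the highest median. Of 83 genes on the list 76 were tested, 65 were higher and 1 was lower after 15 Gy, with a median log2 fold change of 2.15, against 2.52% of all genes called higher and a median of 0.00249 over all genes. A gene could pass the filter through its irradiated libraries alone, so the 76 are not a fixed sample of the list. Isg15, the ubiquitin-like protein that is conjugated to others during an antiviral response, had 404, 615 and 417 CPM in the 15 Gy libraries of mice 1, 2 and 3, against 118, 38.7 and 54.2 CPM in the control libraries numbered 1, 2 and 3. All 3 irradiated libraries lay above all 3 controls, and mouse 2 had both the highest 15 Gy value and the lowest control value (log2 fold change 2.74, SE 0.43, adjusted p = 0.00137). The 5 tested members of the Isg15 conjugation group, which includes the deconjugating enzyme Usp18, were all higher.

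Antiviral effectors differed widely between the groups. Ifit1, which binds foreign RNA caps, had 289, 499 and 291 CPM at 15 Gy, against 42.9, 20.7 and 29.5 CPM in controls. Mouse 2 was highest at 15 Gy and lowest among controls, and the groups did not overlap (log2 fold change 3.50, SE 0.37, adjusted p = 4.49e-05). Its relative Ifit3 had 111, 214 and 106 CPM at 15 Gy, against 9.36, 4.05 and 4.26 CPM in controls (log2 fold change 4.50, SE 0.45, adjusted p = 2.94e-05). The near-identical Ifit3b, from which reads may not be fully separable, had 106, 189 and 106 CPM at 15 Gy, against 7.18, 4.05 and 4.83 CPM in controls. All 5 Ifit genes tested were higher, with a median log2 fold change of 3.5. The oligoadenylate synthetases, which make the second messenger that activates RNase L, had 6 of 8 members higher. Oas3 had 12.1, 19.3 and 14.03 CPM at 15 Gy, against 0.435, 0.45 and 0.568 CPM in controls, where the controls rest on 5 counts in all (log2 fold change 4.90, SE 0.48, adjusted p = 2.85e-05). The relative Oasl2 had 100.2, 145 and 108 CPM at 15 Gy, against 17.9, 12.2 and 13.3 CPM in controls, a gap larger than the spread within either group (log2 fold change 2.99, SE 0.20, adjusted p = 2.36e-06). Both genes were called in every fit that left out 1 library.

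Other effectors moved the same way. All 12 inducible GTPases tested were higher. Among them Mx1, an inhibitor of virus replication, had 10.3, 15.9 and 8.9 CPM at 15 Gy, against 1.96, 1.8 and 1.42 CPM in controls. Igtp, which acts against vacuolar pathogens, had 47.8, 63.4 and 52.6 CPM at 15 Gy, against 19.4, 13.5 and 8.24 CPM in controls. In neither gene did the groups overlap, as in all 285 genes called higher. Rsad2 (viperin), which makes a chain-terminating nucleotide, had 172, 285 and 119 CPM at 15 Gy, against 38.3, 16.6 and 11.6 CPM in controls (log2 fold change 3.05, SE 0.41, adjusted p = 0.000404). Its 15 Gy libraries differed among themselves by more than for Oasl2, with mouse 3 lowest, yet all lay above the controls. Zbp1, a sensor of Z-form nucleic acid, had 19.6, 31.7 and 22.1 CPM at 15 Gy, against 1.96, 0.45 and 1.99 CPM in controls (log2 fold change 3.90, SE 0.43, adjusted p = 7.63e-05). Ifi27l2a, a small mitochondrial membrane protein, had 589, 657 and 426 CPM at 15 Gy, against 95.8, 26.1 and 11.1 CPM in controls, with controls that ranged widely below all irradiated libraries (log2 fold change 3.60, SE 0.56, adjusted p = 0.00114). Trim30a, a ubiquitin ligase, had 127, 222 and 134 CPM at 15 Gy, against 10.9, 7.2 and 3.41 CPM in controls (log2 fold change 4.44, SE 0.41, adjusted p = 1.79e-05).

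The exception was Ifi27, which had 57.04, 46.4 and 61.8 CPM at 15 Gy, against 123, 144 and 129 CPM in controls. All irradiated libraries lay below all controls, opposite to its relative Ifi27l2a (log2 fold change -1.26, SE 0.23, adjusted p = 0.00371). The 10 tested members that did not pass the threshold in either direction included Isg20, Samhd1, Ly6e and Ifitm3, genes also known for interferon response in other cells; these 4 names were chosen after their values were seen. Leaving out 1 library at a time gave between 51 members called higher, without 15 Gy mouse 2, and 68.

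The factors that carry the interferon signal were higher as well. All 5 transcription factors on the list passed, with a median log2 fold change of 1.98. Irf7, the factor that amplifies interferon production, had 135, 214 and 147 CPM at 15 Gy, against 26.3, 17.1 and 18.5 CPM in controls and no overlap (log2 fold change 2.97, SE 0.25, adjusted p = 7.37e-06). Stat2, a signal transducer of the type I response, had 52.8, 73.8 and 44.2 CPM at 15 Gy, against 17.9, 18.4 and 7.67 CPM in controls (log2 fold change 1.98, SE 0.28, adjusted p = 0.000605). Irf9, the DNA-binding partner of Stat2, differed less, with 159, 165 and 171 CPM at 15 Gy, against 114, 96.8 and 80.1 CPM in controls, and groups that did not overlap (log2 fold change 0.77, SE 0.17, adjusted p = 0.0166). The Irf9 call was lost without control mouse 2, control mouse 3, 15 Gy mouse 2 or 15 Gy mouse 3, at adjusted p values of up to 0.0719.

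No message of the interferon genes on the list was seen in any of the 6 libraries, and the list does not hold every interferon gene. The 8 ligand genes on the list, Ifnb1, Ifna2, Ifna4, Ifng, Ifnk, Ifne, Ifnl2 and Ifnl3, had 0 counts throughout, where a count of 0 allows up to 3 counts in a library, so a low level was not detectable at this depth. Of the 11 receptor, kinase and feedback genes tested, none passed in either direction, with a median log2 fold change of 0.20. Ifnar2, a chain of the type I receptor, had 79.5, 78.9 and 94.4 CPM at 15 Gy, against 66.8, 74.3 and 80.1 CPM in controls with overlapping groups (log2 fold change 0.20, SE 0.13, adjusted p = 0.493). Ifnlr1, the chain specific to the type III receptor, had 19.6, 15.04 and 26.2 CPM at 15 Gy, against 11.3, 8.1 and 29.3 CPM in controls (log2 fold change 0.27, SE 0.41, adjusted p = 0.807).

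A short promoter motif is shown here for the interferon-stimulated list. In the RefSeq promoter table of build GRCm38.p6, which holds 250 bases before each start, the core of the interferon response element, GAAANNGAA on either strand (reverse complement TTCNNTTTC), was found in 28 of the 58 tested list genes with an entry, 48.3%, against 643 of 8860 tested genes with an entry, 7.26%. Among list genes that passed the threshold the share was 26 of 49, 53.1%. Printed are the list members with the smallest p that hold the motif, written 5′ to 3′ on the strand of the gene. Where a window holds several matches, only the match nearest the start is in capitals. The Ifit3b and Bst2 stretches each hold a further match ahead of it, which in Bst2 overlaps the capitals.
Lgals9: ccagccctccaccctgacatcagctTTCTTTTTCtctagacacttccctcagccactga
Ifit3b: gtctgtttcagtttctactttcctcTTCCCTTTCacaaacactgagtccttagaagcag
Bst2: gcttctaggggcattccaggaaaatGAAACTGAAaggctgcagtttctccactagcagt
Ddx60: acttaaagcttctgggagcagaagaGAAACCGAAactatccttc
Trim30a: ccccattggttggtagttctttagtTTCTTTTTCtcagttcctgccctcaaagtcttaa
The stretches lie at chr11:78984945-78985003 on the minus strand for Lgals9, chr19:34607798-34607856 on the plus strand for Ifit3b, chr8:71537563-71537621 on the minus strand for Bst2, chr8:61928043-61928086 on the plus strand for Ddx60 and chr7:104465195-104465253 on the minus strand for Trim30a. The match in capitals begins 54 bases before the start in Lgals9, 134 in Ifit3b, 124 in Bst2, 19 in Ddx60 and 35 in Trim30a. A match is a run of letters in this window and does not show that a factor binds it. These 5 genes span low and high levels. The sugar-binding protein Lgals9 had 73.1, 95.3 and 76.6 CPM at 15 Gy, against 18.3, 12.2 and 14.2 CPM in controls (log2 fold change 2.42, SE 0.17, adjusted p = 2.72e-06). Bst2 (tetherin), which holds budding virus at the membrane, had 332, 461 and 326 CPM at 15 Gy, against 68.4, 45 and 40.6 CPM in controls (log2 fold change 2.85, SE 0.24, adjusted p = 7.37e-06). The helicase Ddx60 had 55.6, 95.3 and 60.7 CPM at 15 Gy, against 7.84, 3.15 and 4.54 CPM in controls (log2 fold change 3.66, SE 0.34, adjusted p = 1.79e-05).

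Sensors of nucleic acid were higher in 13 of 21 genes tested, with none lower, beside 2.52% of all genes called higher. Their median log2 fold change was 1.5. Of 5 RNA sensors 4 were higher. Ifih1 (MDA5), a cytosolic sensor of long double-stranded RNA, had 89.5, 113 and 109 CPM at 15 Gy, against 42.01, 35.6 and 30.96 CPM in controls (log2 fold change 1.52, SE 0.17, adjusted p = 8.94e-05). Ddx58 (RIG-I), which reads RNA ends, had 116, 154 and 118 CPM at 15 Gy, against 53.8, 36 and 35.2 CPM in controls (log2 fold change 1.62, SE 0.23, adjusted p = 0.000552). The groups were apart for both. Of 9 DNA sensors 7 were higher, led by the Ifi200 cluster. Mndal had 154, 231 and 159.7 CPM at 15 Gy, against 29.8, 12.2 and 32.4 CPM in controls (log2 fold change 2.82, SE 0.26, adjusted p = 1.8e-05). Ifi207 had 42.4, 43.7 and 60.4 CPM at 15 Gy, against 5.22, 5.4 and 10.5 CPM in controls (log2 fold change 2.78, SE 0.27, adjusted p = 2.19e-05). Members of this cluster are close paralogs, and reads may be shared among them. Cgas, the enzyme that signals from cytosolic DNA, had 8.2, 11.99 and 9.17 CPM at 15 Gy, against 9.58, 9.00 and 8.52 CPM in controls, with overlapping groups (log2 fold change 0.14, SE 0.25, adjusted p = 0.85). Its adaptor Tmem173 (STING) had 29.6, 35.98 and 35.6 CPM at 15 Gy, against 41.8, 55.8 and 39.5 CPM in controls and did not pass (log2 fold change -0.41, SE 0.15, adjusted p = 0.17).

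Antigen presentation genes followed. On the MHC class I presentation list 12 of 22 genes tested were higher and none lower, beside 2.52% of all genes called higher. The median log2 fold change was 1.36, and without 15 Gy mouse 2 the count was 6. The invariant light chain B2m had 1387, 2144 and 1509 CPM at 15 Gy, against 304, 206 and 377 CPM in controls (log2 fold change 2.50, SE 0.36, adjusted p = 0.000571). Every irradiated library lay far above every control, with mouse 2 again highest at 15 Gy and lowest in controls. The heavy chain H2-D1 had 652, 798 and 671 CPM at 15 Gy, against 224, 171 and 247 CPM in controls (log2 fold change 1.72, SE 0.22, adjusted p = 0.000255). H2-Q7, a non-classical chain near the detection limit in controls, had 9.98, 23.8 and 10.5 CPM at 15 Gy, against 0.653, 0.9 and 0.852 CPM in controls (log2 fold change 4.25, SE 0.84, adjusted p = 0.00699). These chains are similar in sequence and reads may be shared; the H2-Q7 call was lost without control mouse 1 or 15 Gy mouse 2, at adjusted p values of up to 0.0537. The peptide transporter subunit Tap1 had 117, 141 and 135 CPM at 15 Gy, against 55.3, 40.1 and 48.3 CPM in controls (log2 fold change 1.44, SE 0.14, adjusted p = 2.19e-05). The immunoproteasome subunit Psmb8 had 25.7, 31.7 and 32.1 CPM at 15 Gy, against 8.49, 4.95 and 9.94 CPM in controls (log2 fold change 1.88, SE 0.27, adjusted p = 0.000571). Outside the list, the MHC class II chain H2-Eb1 had 26.02, 27.6 and 27.5 CPM at 15 Gy, against 4.57, 6.3 and 4.54 CPM in controls (log2 fold change 2.44, SE 0.20, adjusted p = 6.08e-06), with tight values in both groups. The invariant chain Cd74 had 2 counts at 15 Gy and 1 in controls and was not tested.

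Markers of the immune cells that carry many of these genes in tissue were mostly absent or at low levels. Of the 15 immune cell markers, 10 had 0 counts in all 6 libraries, among them Ptprc, Cd3e, Cd3g, Cd79a, Adgre1, Csf1r, Tyrobp, Fcer1g and Nkg7, and none of the 4 tested passed. Besides Cd14, the tested markers were low but present in every library (levels normalised over 24 libraries). Cd68 had 2.83, 2.42 and 3.74 CPM at 15 Gy, against 3.02, 2.23 and 5.90 CPM in controls. Itgam had 2.12, 1.81 and 5.345 CPM at 15 Gy, against 2.59, 2.23 and 7.30 CPM in controls. Lyz2 had 2.12, 2.62 and 3.47 CPM at 15 Gy, against 3.02, 3.12 and 3.93 CPM in controls. The summed level of the list was 133.7, 155.9 and 218.5 CPM at 15 Gy, against 107.5, 52.2 and 160.2 CPM in controls, most of it Cd14, which epithelium also makes. For every group described here, bulk RNA does not separate a change in cell numbers from one in RNA per cell: fewer cells of a type and less RNA per cell cannot be told apart.

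Secreted signals were mostly without a call, beside 2.52% of all genes called higher. Of 27 chemokine and cytokine genes tested 1 was higher, Ccl5, which draws T cells, with 27.1, 41.9 and 24.8 CPM at 15 Gy, against 3.7, 1.8 and 7.38 CPM in controls and no overlap (log2 fold change 2.80, SE 0.40, adjusted p = 0.000571). Cxcl10, a chemokine induced by interferon, had 27.4, 48.6 and 18.9 CPM at 15 Gy, against 19.8, 5.85 and 4.83 CPM in controls, where control mouse 1 lay above the 15 Gy library of mouse 3 (log2 fold change 1.54, SE 0.48, adjusted p = 0.0835; 0.0127 with the mouse as a block, where 3 members were called higher). The count of higher chemokine and cytokine genes was 2 without control mouse 1 or control mouse 3. Among secreted defence genes, the acute phase protein Saa3 had 6.42, 19.1 and 39.1 CPM at 15 Gy, against 1.96, 1.8 and 4.83 CPM in controls (log2 fold change 2.91, SE 0.63, adjusted p = 0.0131). Its irradiated values spread about as widely as the gap to controls, and the call was lost without control mouse 1 or 15 Gy mouse 3, at adjusted p values of up to 0.0888. Wfdc18, a small whey acidic protein, was lower, with 77, 113 and 173 CPM at 15 Gy, against 686, 423 and 408 CPM in controls (log2 fold change -2.06, SE 0.27, adjusted p = 0.000343).

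**Figure D2:**
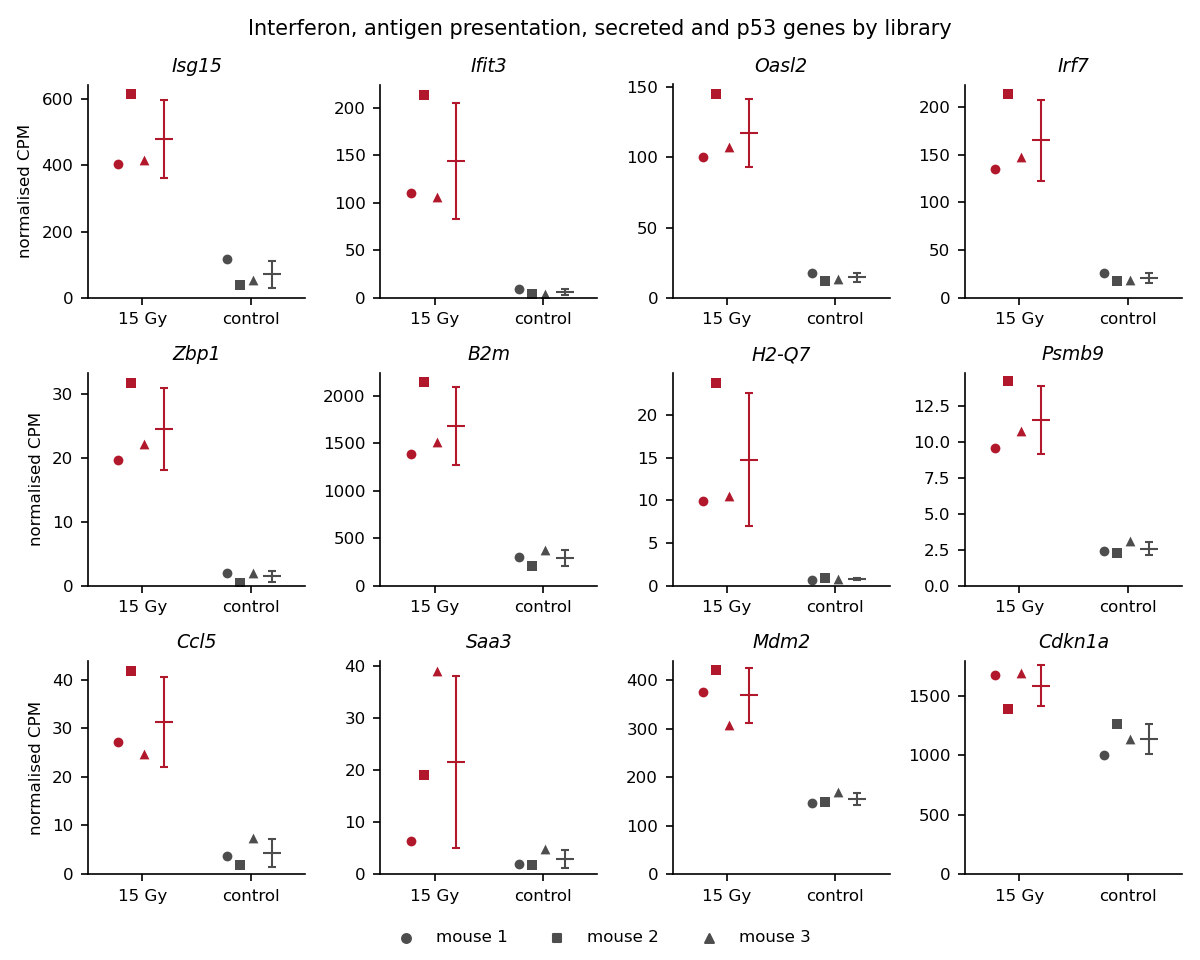
Normalised CPM (vertical axes, from 0) of 12 genes in the 15 Gy and control libraries, 1 symbol per mouse, with the mean and SD of 3 libraries beside the points. In all 12 panels every 15 Gy library lies above every control; Saa3 spreads widely at 15 Gy, from 6.42 to 39.1 CPM, and Cdkn1a, which did not pass the threshold, shows a small gap.

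Targets of p53 showed a smaller and more mixed difference. Of 43 genes tested 16 were higher and none was lower, beside 2.52% of all genes called higher, with a median log2 fold change of 0.57. Mdm2, the ubiquitin ligase that degrades p53, had 376, 421 and 308 CPM at 15 Gy, against 147, 148 and 169 CPM in controls (log2 fold change 1.25, SE 0.19, adjusted p = 0.000937). Ccng1, a cyclin that p53 induces, had 536, 593 and 523 CPM at 15 Gy, against 263, 252 and 261 CPM in controls, with little spread in either group (log2 fold change 1.09, SE 0.14, adjusted p = 0.000328). Both were called in every fit that left out 1 library, as were Ak1 (1.28 (adjusted p = 4.29e-05)), an adenylate kinase, the long noncoding Pvt1 (1.23 (adjusted p = 0.00151)) and Trp53inp1 (0.91 (adjusted p = 0.00255)), a stress-induced autophagy factor. Cdkn1a, which encodes the cell cycle inhibitor p21, had 1675, 1384 and 1689 CPM at 15 Gy, against 1005, 1261 and 1139 CPM in controls. All its irradiated values were higher than all control values, but the difference did not pass (log2 fold change 0.48, SE 0.16, adjusted p = 0.109). The death genes Bax (0.60 (adjusted p = 0.341)), Bbc3 (0.35 (adjusted p = 0.421)) and Fas (0.43 (adjusted p = 0.525)) did not pass either. The list's count moved with single libraries: it was 8 with 15 Gy mouse 2 left out. It was 10 with either 15 Gy mouse 3 or control mouse 1 left out, and 25 with the shallow 4 Gy library of mouse 3 left out.

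Within the Bcl2 family none of 13 genes was higher and 2 were lower, beside 2.77% of all genes called lower. The pore-forming relative Bok had 6.06, 5.9 and 5.93 CPM at 15 Gy, against 13.9, 13.5 and 18.7 CPM in controls, at nearly the same level in the 3 irradiated libraries (log2 fold change -1.37, SE 0.21, adjusted p = 0.000889). Bnip3, a mitochondrial BH3-only protein that hypoxia induces, had 38.9, 33.9 and 49.9 CPM at 15 Gy, against 68.6, 92.3 and 118 CPM in controls (log2 fold change -1.18, SE 0.24, adjusted p = 0.00751), a call lost without 15 Gy mouse 2 (adjusted p = 0.0657). None of the 7 cyclin-dependent kinase inhibitors tested passed. Cdkn2a, whose products include p16, had 199, 201 and 166 CPM at 15 Gy, against 184, 148 and 217 CPM in controls (log2 fold change 0.04, SE 0.21, adjusted p = 0.959). None of the 7 nuclear proteins known to be lost in senescence passed. Lmnb1 had 41.7, 43.9 and 58.3 CPM at 15 Gy, against 56.4, 61.2 and 49.99 CPM in controls with overlapping groups (log2 fold change -0.21, SE 0.14, adjusted p = 0.5).

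Few genes of cell division passed the threshold. Of 43 genes of DNA replication and S phase 3 were lower and 38 had a log2 fold change below 0, with a median of -0.47, beside 2.77% of all genes called lower and 49.6% below 0. Of 38 genes of G2 and mitosis 3 were lower and 37 were below 0, with a median of -0.54. The proliferation marker Mki67 had 4.28, 9.55 and 10.5 CPM at 15 Gy, against 34.8, 22.1 and 19.03 CPM in controls. The groups did not overlap, although the range within each was wide (log2 fold change -1.61, SE 0.32, adjusted p = 0.00786). The Mki67 call was lost without control mouse 1 (adjusted p = 0.0651). The S phase list had between 0 calls (without control mouse 1, control mouse 2, 15 Gy mouse 1, or the 4 Gy library of mouse 1 or mouse 2), 1 call (without control mouse 3, 15 Gy mouse 2 or 15 Gy mouse 3) and 6 to 7 calls (without 7 Gy mouse 3 or 4 Gy mouse 3). The mitosis list had 0 without control mouse 1, 1 without control mouse 2, 15 Gy mouse 1 or 15 Gy mouse 2, and 6 without 7 Gy mouse 3. Of 28 double-strand break repair genes only Rad54b passed, at -2.40 (adjusted p = 0.0284), a call that leaving out control mouse 1 or any 15 Gy library removed (adjusted p up to 0.217).

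The squamous programme was lower, and its keratins had the lowest median of the lists with at least 5 genes tested. Of 7 keratins of stratified epithelia tested 6 were lower, with a median log2 fold change of -2.06, against 2.77% of all genes called lower. Krt13, the keratin of non-cornified mucosa, had 37.4, 37.4 and 33.7 CPM in the 15 Gy libraries of mice 1, 2 and 3, against 210.3, 289 and 278 CPM in the control libraries numbered 1, 2 and 3. The 3 irradiated libraries were close to each other and the groups were far apart (log2 fold change -2.84, SE 0.22, adjusted p = 6.08e-06). Krt16, a keratin of wounded epithelium, had 1.78, 2.64 and 1.62 CPM at 15 Gy, against 22.6, 22.9 and 15.3 CPM in controls (log2 fold change -3.26, SE 0.47, adjusted p = 0.00063). Its partner Krt6b had 34.6, 54.5 and 35.6 CPM at 15 Gy, against 307, 327 and 255 CPM in controls (log2 fold change -2.82, SE 0.31, adjusted p = 7.63e-05). The near-identical Krt6a, with which Krt6b may share reads, had 627, 739 and 895 CPM at 15 Gy, against 1355, 1589.9 and 1656 CPM in controls, a smaller difference at a higher level (log2 fold change -1.02, SE 0.17, adjusted p = 0.00221). Krt10, an early marker of the suprabasal layers, had 9.62, 6.51 and 8.36 CPM at 15 Gy, against 42.01, 23.4 and 32.7 CPM in controls (log2 fold change -2.06, SE 0.29, adjusted p = 0.000493). Krt17 was the member that did not pass. The count was 6 or 7 in every fit that left out 1 library.

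Cornified envelope genes went the same way. On the list of cornified envelope and squamous differentiation 13 of 32 genes tested were lower and none was higher. The median log2 fold change was -0.70, beside 2.77% of all genes called lower. The count was 8 without 15 Gy mouse 1 and 6 without 15 Gy mouse 2. Envelope proteins made up 10 of the 13. Cnfn (cornifelin) had 0.356, 2.44 and 3.51 CPM at 15 Gy, against 24.6, 21.1 and 32.1 CPM in controls (log2 fold change -3.52, SE 0.42, adjusted p = 0.000132). Krtdap, a secreted keratinocyte differentiation protein, had 2.5, 1.83 and 2.7 CPM at 15 Gy, against 15.2, 24.8 and 33.8 CPM in controls (log2 fold change -3.39, SE 0.39, adjusted p = 0.000113). Dapl1 had 1.43, 1.22 and 3.51 CPM at 15 Gy, against 17.6, 19.8 and 16.5 CPM in controls (log2 fold change -3.12, SE 0.31, adjusted p = 2.91e-05). In each the highest irradiated value was under the lowest control value, as in 310 of the 313 genes called lower. The small proline-rich envelope protein Sprr2f had 214, 241 and 292 CPM at 15 Gy, against 786, 1169.6 and 1595 CPM in controls, with controls that ranged widely above all irradiated libraries (log2 fold change -2.25, SE 0.25, adjusted p = 7.63e-05). Sprr2 genes are close copies, and their reads may be shared. Outside the lists, the airway and oral protease Tmprss11a had 4.28, 5.49 and 8.36 CPM at 15 Gy, against 36.8, 39.6 and 47.4 CPM in controls (log2 fold change -2.75, SE 0.22, adjusted p = 6.08e-06). Calml3, a calmodulin-like protein of stratified epithelium, had 38.1, 40.7 and 37.8 CPM at 15 Gy, against 175, 183 and 197 CPM in controls (log2 fold change -2.25, SE 0.18, adjusted p = 6.08e-06).

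Basal and luminal markers differed less. Of 13 basal duct cell markers 3 were lower, with a median log2 fold change of -0.30, beside 2.77% of all genes called lower. The count was 1 without control mouse 1 or any 15 Gy library, and 5 without the shallow 4 Gy library of mouse 3. Ngfr, a receptor on basal cells, had 95.5, 64.6 and 75.5 CPM at 15 Gy, against 136, 153 and 119.9 CPM in controls (log2 fold change -0.80, SE 0.15, adjusted p = 0.00426). Krt14 had 905, 926 and 848 CPM at 15 Gy, against 1679, 2004 and 1419.9 CPM in controls, with no overlap (log2 fold change -0.93, SE 0.22, adjusted p = 0.025). The basal cell factor Trp63 had 82.7, 78.3 and 86.1 CPM at 15 Gy, against 112, 108 and 115 CPM in controls (log2 fold change -0.44, SE 0.11, adjusted p = 0.0246). The Krt14 and Trp63 calls each ended in 5 of the 12 fits that left out 1 library, namely those without control mouse 1, without any 15 Gy library and, for Krt14, without control mouse 2 (adjusted p up to 0.11) or, for Trp63, without control mouse 3 (adjusted p up to 0.147). Krt5, the partner of Krt14, had 1994, 2148 and 1886 CPM at 15 Gy, against 2790.4, 2667 and 2526 CPM in controls and did not pass (log2 fold change -0.40, SE 0.20, adjusted p = 0.321). None of 12 luminal duct markers passed, with a median of -0.06. Krt7 had 1488, 1472 and 1582 CPM at 15 Gy, against 1230.1, 1399 and 1500.0 CPM in controls (log2 fold change 0.14, SE 0.23, adjusted p = 0.83). The desmosomal proteins Dsg3 (-0.97 (adjusted p = 0.0038)) and Pkp1 (-0.79 (adjusted p = 0.0026)), which join keratinocytes, were lower. They were 2 of 12 on their list, beside 2.77% of all genes called lower.

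Sterol synthesis was lower across much of the pathway. Of 26 genes tested 16 were lower and 1 was higher, beside 2.77% of all genes called lower. The median log2 fold change was -0.82, and of the 20 enzymes 13 were lower. Leaving out 1 library gave 11 to 19 lower genes. Sqle, which makes squalene epoxide, had 41.7, 46.1 and 41.5 CPM at 15 Gy, against 68.4, 81 and 89.5 CPM in controls (log2 fold change -0.87, SE 0.17, adjusted p = 0.00613). Cyp51, which removes a methyl group from lanosterol, had 58.8, 73.6 and 58.8 CPM at 15 Gy, against 159, 176 and 163 CPM in controls, with each irradiated library under every control (log2 fold change -1.37, SE 0.18, adjusted p = 0.000378). The transport protein Stard4 had 10.3, 11.99 and 13.2 CPM at 15 Gy, against 33.3, 32.4 and 35.2 CPM in controls (log2 fold change -1.49, SE 0.20, adjusted p = 0.000343).

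The single higher gene was Scap, the escort protein of SREBP, with 93.4, 98.4 and 86.6 CPM at 15 Gy, against 69.4, 63.5 and 69.6 CPM in controls (log2 fold change 0.46, SE 0.12, adjusted p = 0.034). That call was kept in 3 of the 12 fits that left out 1 library and ended without any 1 of the 6 libraries compared (adjusted p up to 0.179). Of 9 cholesterol efflux genes 2 were called, beside 5.29% of all genes. Apoe, a lipid carrier, was lower with 2.85, 2.24 and 4.59 CPM at 15 Gy, against 13.3, 14.4 and 28.1 CPM in controls (log2 fold change -2.55, SE 0.54, adjusted p = 0.0112; 0.0904 without 15 Gy mouse 2). The transporter Abcg1 was higher with 10.7, 13.6 and 16.2 CPM at 15 Gy, against 4.57, 4.05 and 7.1 CPM in controls (log2 fold change 1.35, SE 0.30, adjusted p = 0.0161). The Abcg1 call ended without control mouse 1 or 2 or 15 Gy mouse 2 or 3, at adjusted p values of up to 0.0974. Among 15 fatty acid genes 2 were lower, beside 2.77% of all genes called lower. They were the desaturases Scd2 (-0.51 (adjusted p = 0.0195)) and Fads1 (-0.69 (adjusted p = 0.0201)). The Scd2 call ended without control mouse 1 or any 15 Gy library (adjusted p up to 0.117). The Fads1 call ended without control mouse 2 or 3 or 15 Gy mouse 1 or 2 (adjusted p up to 0.0955).

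The sterol regulatory element TCACNCCAC (reverse complement GTGGNGTGA) was looked for in the same way, and is shown for the 1 list member that holds it. It was found in 1 of the 18 list genes with an entry, 5.56%, against 107 of 8860 tested genes, 1.21%. The stretch lies at chr13:119690189-119690247 on the plus strand (RefSeq, GRCm38.p6) and the motif, in capitals, begins 137 bases before the start.
Hmgcs1: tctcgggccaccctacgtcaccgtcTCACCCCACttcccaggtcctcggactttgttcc
Hmgcs1, which makes the precursor of mevalonate, had 154, 162 and 165 CPM at 15 Gy, against 265, 345 and 281 CPM in controls (log2 fold change -0.88, SE 0.19, adjusted p = 0.0131). The call ended without control mouse 2, 15 Gy mouse 1 or 15 Gy mouse 2 (adjusted p up to 0.0712). No match in this window says only that these letters are not there.

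Genes of hypoxia and glycolysis were lower in 10 of 31 tested and higher in none, beside 2.77% of all genes called lower. Their median log2 fold change was -0.55, and without 15 Gy mouse 2 the count was 3. Aldoc, an aldolase of glycolysis, had 16.4, 12.6 and 10.8 CPM at 15 Gy, against 40.5, 47.3 and 40.6 CPM in controls and groups far apart (log2 fold change -1.70, SE 0.17, adjusted p = 2.94e-05). Egln3, the oxygen sensor that marks HIF for destruction and is itself induced by hypoxia, had 74.1, 60.8 and 109.8 CPM at 15 Gy, against 172, 234 and 305 CPM in controls (log2 fold change -1.54, SE 0.28, adjusted p = 0.0038). Ndrg1 had 124, 73.8 and 137 CPM at 15 Gy, against 218, 330.3 and 393 CPM in controls (log2 fold change -1.5, SE 0.27, adjusted p = 0.00391). In both genes control mouse 1 was the lowest control, above every irradiated library. Vegfa, the vessel growth factor, had 175, 133 and 162 CPM at 15 Gy, against 180.2, 187 and 244 CPM in controls (log2 fold change -0.38, SE 0.15, adjusted p = 0.211) and did not pass. None of 33 nuclear respiratory chain genes, 7 mitochondrially encoded genes or 81 ribosomal protein genes passed, with medians of 0.01, -0.05 and -0.10.

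**Figure D3:**
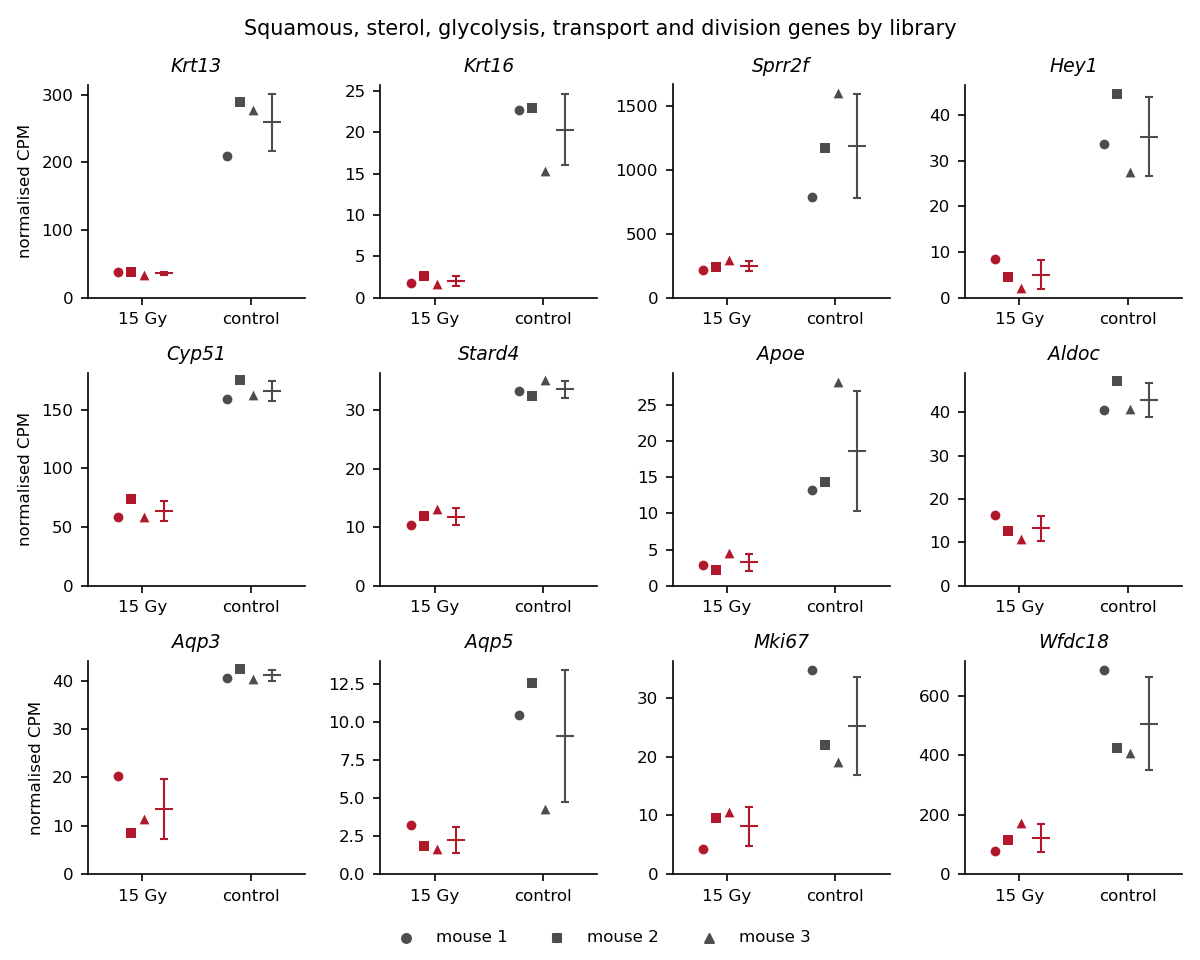
Normalised CPM (vertical axes, from 0) of 12 genes lower after 15 Gy, by library, with 1 symbol per mouse and the mean and SD of 3 libraries beside the points. The 3 Krt13 values at 15 Gy lie at 33.7 to 37.4 CPM, under control values of 210.3 to 289 CPM, and in all 12 panels every irradiated library lies below every control.

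Salivary functions were weakly represented. None of the 10 granular duct markers reached the filter, and of 20 acinar markers 7 were tested. Of these 1 was lower, beside 2.77% of all genes called lower. A log2 fold change above 0 was seen in 5, with a list median of 0.25. The lower count was 2 without control mouse 3, 4 Gy mouse 3 or 7 Gy mouse 3. It was 0 without control mouse 1, 15 Gy mouse 2 or 15 Gy mouse 3. Aqp5, the water channel of acinar cells, had 3.21, 1.83 and 1.62 CPM at 15 Gy, against 10.4, 12.6 and 4.26 CPM in controls (log2 fold change -2.05, SE 0.45, adjusted p = 0.0132). The groups were close, with irradiated mouse 1 near control mouse 3, and the call ended without control mouse 1, 15 Gy mouse 2 or 15 Gy mouse 3 (adjusted p up to 0.0936). The other water channels on the transport list were lower without such loss. Aqp3 had 20.3, 8.54 and 11.3 CPM at 15 Gy, against 40.5, 42.3 and 40.3 CPM in controls (log2 fold change -1.68, SE 0.25, adjusted p = 0.000744). Aqp4 had 39.2, 54.3 and 36.96 CPM at 15 Gy, against 126, 130.1 and 93.2 CPM in controls (log2 fold change -1.4, SE 0.24, adjusted p = 0.00255). These were the 3 calls among 19 transport genes, beside 2.77% of all genes called lower. The count was 6 without the shallow 4 Gy library of mouse 3 and 5 in the 6 libraries alone. Acta2, an actin of myoepithelial cells, had 0.356, 3.46 and 6.2 CPM at 15 Gy, against 4.14, 8.1 and 14.8 CPM in controls and did not pass (log2 fold change -1.31, SE 0.52, adjusted p = 0.199).

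Among signalling genes, the Notch target Hey1 stood apart. It had 8.56, 4.47 and 2.16 CPM at 15 Gy, against 33.7, 44.6 and 27.6 CPM in controls, each irradiated library far under each control (log2 fold change -2.85, SE 0.34, adjusted p = 0.000152). The other 8 Notch genes tested did not pass, beside 2.77% of all genes called lower. Without the shallow 4 Gy library of mouse 3 the list had 2 lower genes, in a fit that called 567 genes lower in all. The immediate early gene Fos had 64.5, 46.8 and 46.7 CPM at 15 Gy, against 179, 108 and 90.6 CPM in controls (log2 fold change -1.28, SE 0.26, adjusted p = 0.00893), a call that ended without control mouse 1, 15 Gy mouse 2 or 15 Gy mouse 3 (adjusted p up to 0.0698). Tnc, a matrix protein of wounds, had 68.1, 67.7 and 67.7 CPM at 15 Gy, against 119, 118 and 128 CPM in controls, with almost no spread at 15 Gy (log2 fold change -0.84, SE 0.13, adjusted p = 0.00137). The insulin-like growth factor binding protein Igfbp4 had 75.2, 52.4 and 55.3 CPM at 15 Gy, against 109.9, 132 and 104 CPM in controls (log2 fold change -0.92, SE 0.16, adjusted p = 0.00267). Of 14 semaphorin genes 1 was higher, the guidance factor Sema3e, with 50.3, 72.8 and 65.01 CPM at 15 Gy, against 20.9, 22.5 and 29.5 CPM in controls (log2 fold change 1.38, SE 0.28, adjusted p = 0.00792; up to 0.0592 without control mouse 1 or 15 Gy mouse 2). Without control mouse 3 the count was 2. With all libraries, 2.52% of all genes tested were called higher.

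**Figure D4:**
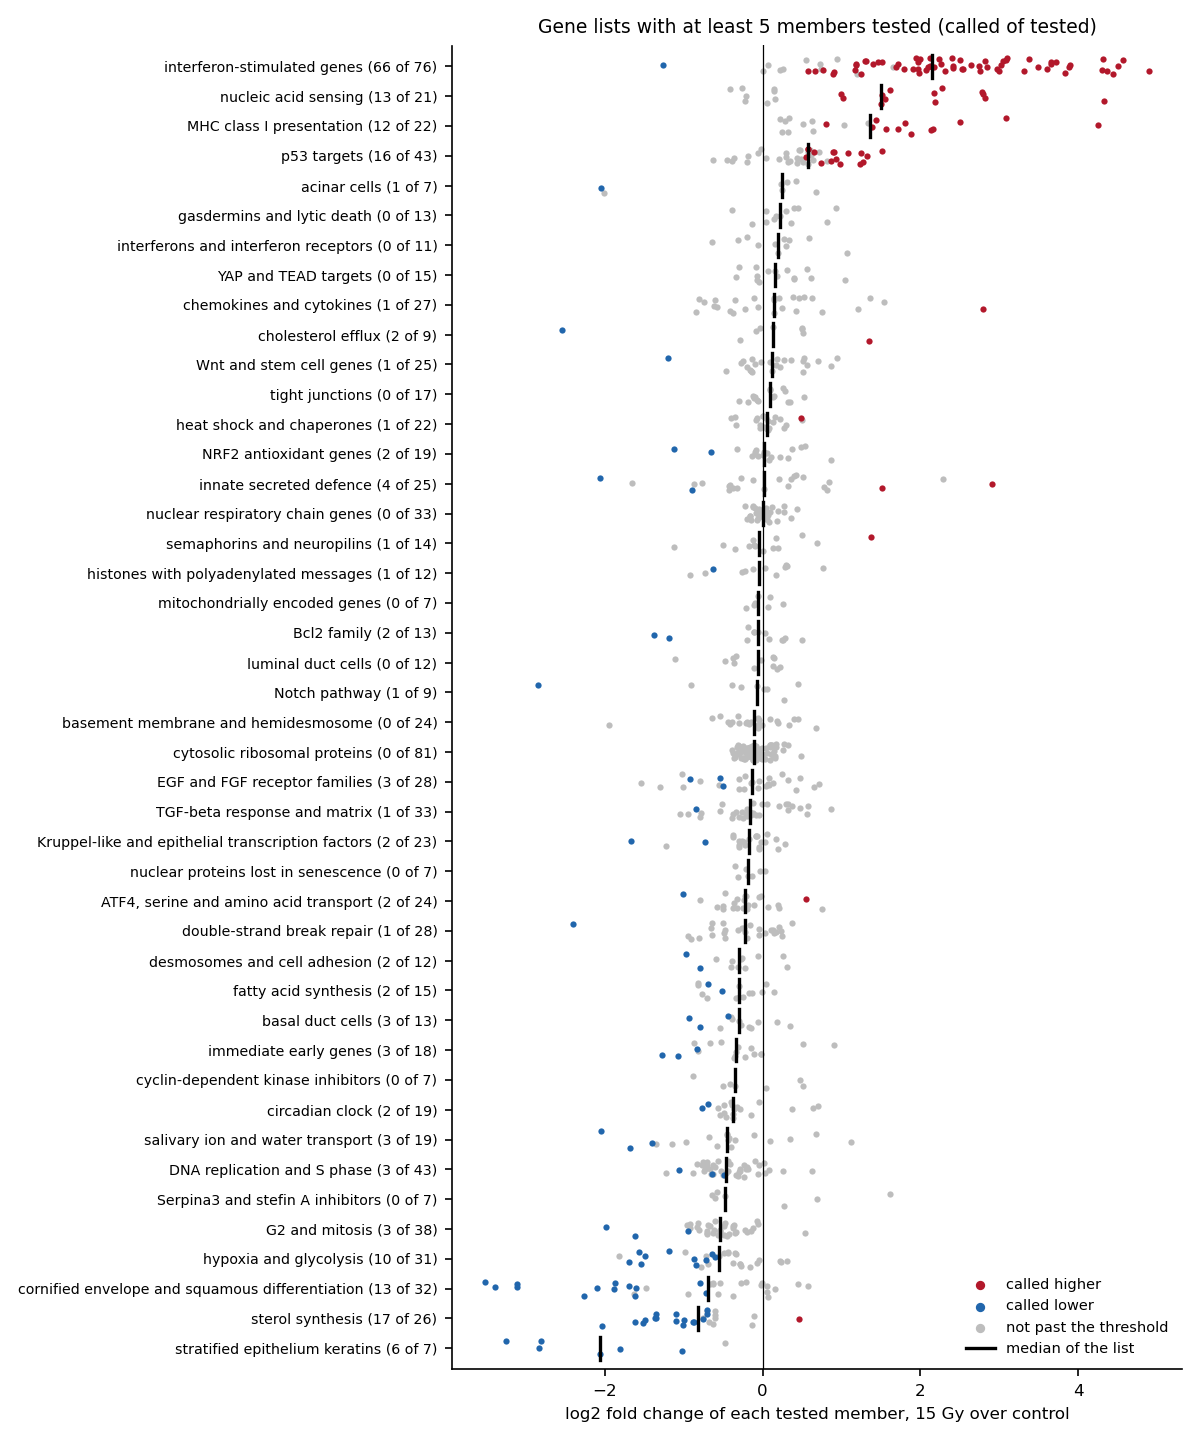
Log2 fold change of 15 Gy over control for each tested member (points) of every list with at least 5 members tested, ordered by the list median (black bar), with the number called of those tested beside each name. Interferon-stimulated genes lie at the top with a median of 2.15, and the stratified epithelium keratins at the bottom with a median of -2.06; most other lists centre near 0.

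Most genes past the threshold belonged to no list, 172 of the higher and 229 of the lower. Of the higher ones with the smallest p, Sncg (gamma-synuclein) had 60.6, 69.3 and 58 CPM at 15 Gy, against 15.2, 20.7 and 21.3 CPM in controls (log2 fold change 1.74, SE 0.15, adjusted p = 7.37e-06). The phospholipase Plcd4 had 13.2, 13.2 and 8.63 CPM at 15 Gy, against 1.52, 1.35 and 1.42 CPM in controls (log2 fold change 2.98, SE 0.31, adjusted p = 3.69e-05). Robo3, a guidance receptor, had 13.9, 14.8 and 10.5 CPM at 15 Gy, against 2.39, 0.9 and 0.568 CPM in controls, of low level in controls (log2 fold change 3.16, SE 0.47, adjusted p = 0.000857). Vnn1, a pantetheinase of oxidative stress, had 43.8, 72.98 and 81.2 CPM at 15 Gy, against 13.1, 8.55 and 22.7 CPM in controls (log2 fold change 2.13, SE 0.29, adjusted p = 0.000473). Hmga2, a chromatin protein of dividing and tumour cells, had 128, 185 and 111 CPM at 15 Gy, against 56.6, 54.9 and 57.9 CPM in controls (log2 fold change 1.33, SE 0.21, adjusted p = 0.00153). The translesion polymerase Rev1 had 57.04, 56.1 and 55.6 CPM at 15 Gy, against 31.8, 32.4 and 29.3 CPM in controls (log2 fold change 0.85, SE 0.13, adjusted p = 0.000882). In none of these 6 genes did the groups overlap, as in all 285 genes called higher. Of the lower ones, the neurotrophin receptor Ntrk3 had 48.8, 38.2 and 48.02 CPM at 15 Gy, against 114, 105 and 103 CPM in controls (log2 fold change -1.26, SE 0.12, adjusted p = 2.79e-05). The protease receptor F2rl1 had 9.62, 10.6 and 8.9 CPM at 15 Gy, against 28.95, 33.3 and 31.5 CPM in controls (log2 fold change -1.67, SE 0.19, adjusted p = 9.11e-05). The adhesion protein Ceacam1 had 11.4, 11.99 and 17 CPM at 15 Gy, against 41.8, 44.6 and 59.4 CPM in controls (log2 fold change -1.85, SE 0.22, adjusted p = 0.000117).

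Levels at the lower doses are given as a description, with no test of a dose trend. Oasl2 had 17.9, 12.2 and 13.3 CPM in controls, 89.9, 103 and 66.9 CPM at 4 Gy, 116, 104 and 91.96 CPM at 7 Gy and 100.2, 145 and 108 CPM at 15 Gy in mice 1, 2 and 3. From 4 Gy up, the interferon gene lay well above controls, and its 3 irradiated dose groups overlapped. Krt13 had 210.3, 289 and 278 CPM in controls, 96.9, 62.7 and 55.7 CPM at 4 Gy, 67.4, 44.8 and 36.7 CPM at 7 Gy and 37.4, 37.4 and 33.7 CPM at 15 Gy, with a lower median at each higher dose. Mdm2 had 147, 148 and 169 CPM in controls, 248, 284 and 141 CPM at 4 Gy, 329.8, 349.9 and 303 CPM at 7 Gy and 376, 421 and 308 CPM at 15 Gy, with a higher median at each higher dose. Cyp51 had 159, 176 and 163 CPM in controls, 157, 161 and 126 CPM at 4 Gy, 132, 109.7 and 71.5 CPM at 7 Gy and 58.8, 73.6 and 58.8 CPM at 15 Gy, where the 4 Gy libraries lay closest to controls and the 7 Gy library of mouse 3 lay within the range at 15 Gy. The third value at 4 Gy comes from the library of 314409 counts.

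The effect at day 6 was then set against that of the same dose at day 2, in 3 libraries at 15 Gy and 3 controls. Of the 285 genes higher here 144 were also higher at day 2, 50.5% of the list here and 50.7% of the 284 there. Of the 313 lower here 75 were also lower at day 2, 24% here and 28.5% of the 263 there. Of the genes called here, 260 of the higher and 293 of the lower were tested at day 2. The others count as not shared in these percentages. A test of the difference between the 2 effects, in 24 libraries, called 12 of 11578 genes, 0.104%, of which 2 (0.0173%) differed upward at day 6 and 10 (0.0864%) downward. Without control mouse 3 of day 2 these were 20 and 30, without 15 Gy mouse 2 of day 2 they were 0 and 5, and without control mouse 2 of day 2 they were 1 and 6. The upward count was 1 without 15 Gy mouse 3 of day 2, control mouse 2 or 3 of day 6, or 15 Gy mouse 2 of day 6. Of 75 interferon-stimulated genes tested 1 differed, Ifi27, and the median difference of the list was -0.58.

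Of the 12 genes whose effect differed between days, 10 had a lower log2 fold change at day 6. Aqp4 had 38.9, 53.8 and 36.6 CPM at 15 Gy, against 125, 129 and 92.1 CPM in controls, at day 6. At day 2 it had 155, 199.6 and 160.2 CPM at 15 Gy, against 71.9, 73.3 and 104 CPM in controls (levels here normalised over 24 libraries). The water channel was thus under its controls at day 6 and above them at day 2, and the difference in log2 fold change was -2.46 (SE 0.34, adjusted p = 0.00251). Fos likewise had 63.98, 46.3 and 46.2 CPM at 15 Gy, against 177, 106 and 89.6 CPM in controls, at day 6. At day 2 it had 32.7, 24.98 and 29.1 CPM at 15 Gy, against 15.2, 15.9 and 13.1 CPM in controls, a difference of -2.22 (SE 0.38, adjusted p = 0.00967). Both calls held in all 12 fits that left out 1 library of the groups compared.

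In the sterol pathway 16 genes were lower at day 6 and 2 at day 2, with list medians of -0.82 at day 6 and -0.05 at day 2. The difference itself passed for Cyp51, at -1.29 (SE 0.25, adjusted p = 0.0364), a call kept in 3 of 12 fits without 1 library. For stratified keratins 6 genes of 7 were lower at day 6 and 1 of 8 at day 2, and none passed the test of the difference, with a median difference of -0.96. Hypoxia and glycolysis genes had 10 of 31 lower at day 6 and 11 of 31 at day 2. Over all genes tested, 313 were called lower at day 6, 2.77%, and 263 at day 2. The same photon dose at the 2 times was given to cultures with their own controls, and day 6 and day 2 libraries share no sample.

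**Figure D5:**
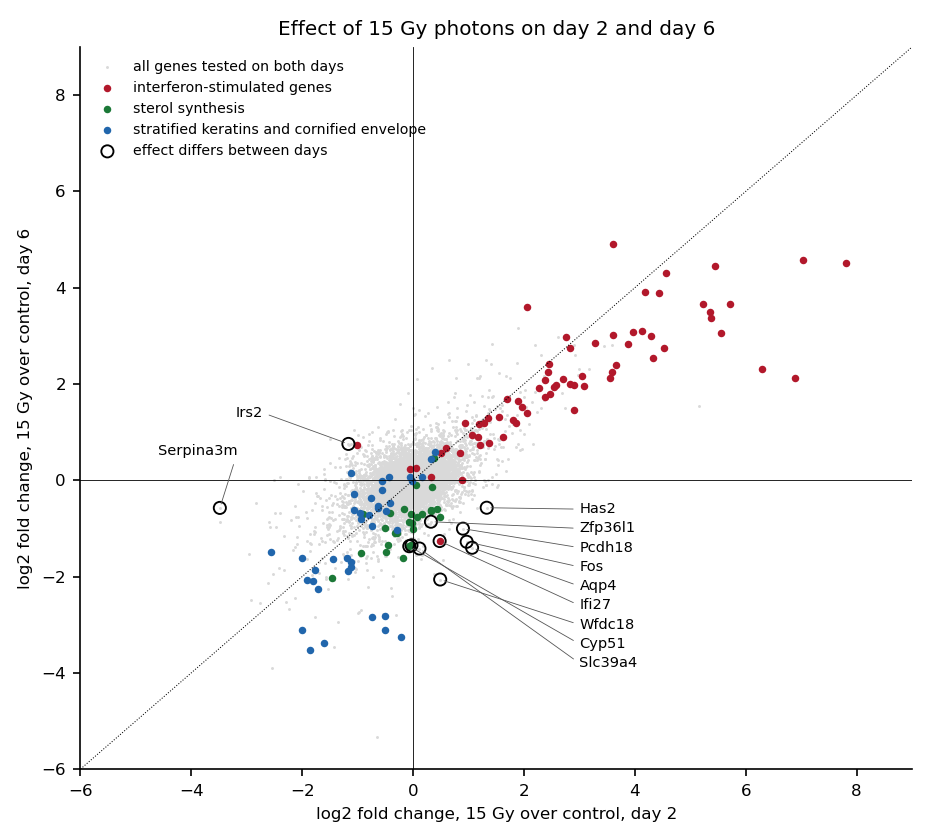
Log2 fold change of 15 Gy over control at day 6 (vertical axis) against day 2 (horizontal axis) for genes tested on both days, with the dotted line of equal effects. Interferon-stimulated genes (red) lie at the upper right, mostly under the line. Sterol genes (green) lie under 0 at day 6 and near 0 at day 2. The 12 circled genes are those whose effect differed between the days.

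Against 15 Gy of protons at day 6, 183 of the 285 higher genes were also higher, 64.2% of the list here and 15.5% of the 1184 there. Of the 313 lower genes 173 were also lower, 55.3% here and 12.1% of the 1427 there, and none was called the opposite way. Tested with protons were 269 of the 285 higher and 285 of the 313 lower genes. The others count as not shared in these percentages. The test of the proton minus photon effect called 499 of 11310 genes, 4.41%, with 289 (2.56%) upward and 210 (1.86%) downward. Radiation type, the controls of each series and any difference in the date of irradiation go together in it and cannot be told apart. The counts rested on single libraries: without photon control mouse 1 they were 25 and 16, and without proton 15 Gy mouse 1 they were 576 and 678. They also fell by more than 1.5 times without photon control mouse 2 (126 and 60), photon 15 Gy mouse 1 (57 and 40) or mouse 3 (77 and 68), proton control mouse 2 (83 and 41) or mouse 3 (64 and 38), or proton 15 Gy mouse 2 (111 and 108) or mouse 3 (169 and 83). They were 441 and 451 without photon control mouse 3. The downward count was 385 without proton control mouse 1. With library size alone in place of TMM the split was 492 upward and 95 downward. Of 77 interferon-stimulated genes 16 had a higher log2 fold change with protons and none a lower one, with a median difference of 1.21.

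Oasl2 is an example. After protons it had 126, 138 and 121 CPM at 15 Gy, against 4.6, 7.22 and 3.75 CPM in proton controls, and after photons it had 96.96, 140.4 and 104 CPM at 15 Gy, against 17.3, 11.9 and 12.9 CPM in photon controls. The irradiated libraries of the 2 types overlapped and the photon controls lay above the proton controls. The difference in log2 fold change was 1.65 (SE 0.32, adjusted p = 0.00929), at an adjusted p of 0.0501 without photon control mouse 1. Tap1 had the same pattern, with 149.9, 127 and 128 CPM at 15 Gy, against 20.97, 24.7 and 28.9 CPM in controls, after protons and 113, 136 and 130.1 CPM at 15 Gy, against 53.5, 39.3 and 46.7 CPM in controls, after photons (1.01 (SE 0.21, adjusted p = 0.0116); 0.0534 without photon control mouse 1). Elf3, an epithelial transcription factor, had 32.4, 22.4 and 16.3 CPM at 15 Gy, against 101, 111 and 113 CPM in controls, after protons and 72.8, 51.8 and 74.7 CPM at 15 Gy, against 69.1, 85.2 and 102 CPM in controls, after photons. Its photon groups overlapped and its proton groups did not (-1.81 (SE 0.26, adjusted p = 0.00136)). No sterol gene passed the test of this difference, and 19 of 26 were lower after protons alone, against 16 of 26 after photons. Over all genes tested, 1427 were lower after protons and 313 after photons, so these list counts are not on a like footing.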

How the data were processed

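RNA levels came from QuantSeq 3′ libraries, 1 per mouse and condition, and the deposited count files hold whole-number counts of reads per gene, not normalised, for 47643 Ensembl identifiers, 47224 of them with a symbol. GRCm39 and edgeR are named in the submitters' processing notes. The aligner, counter and strand setting were not given in the sources used here, so reads of overlapping, antisense or near-identical genes may not be separated, and no gene coordinates are given. The summary lines of each file, 9.26 to 12.5% of counts in the 6 libraries, were left out. The members, gene lists and tests were chosen with earlier results of these data known.

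Counts were fitted with edgeR 4.0.16 (R 4.3.3; TMM normalisation, filterByExpr, quasi-likelihood F test, Benjamini-Hochberg, threshold 0.05) over the 12 photon libraries of day 6, contrast 15 Gy minus control, where the 4 and 7 Gy libraries share the estimate of the spread. Differences between days and between radiation types were interaction contrasts over 24 libraries each. CPM are normalised by the TMM library sizes. Each SE was derived from the log2 fold change and its F statistic (absolute value over root F). Adjusted p in every sentence is from these edgeR fits. The 6 libraries held 2377331 to 4745719 gene counts; 1 gene, Gm42418, took 95276 to 142240 CPM at 15 Gy and 105640 to 186250 CPM in controls, which lowers the depth left for the others. On simulated counts for this comparison (11308 genes, 200 changed) the fit called 69% of genes changed by log2 1 and 94% of those changed by log2 2, and 5.78% of its calls were false. The simulated counts were drawn independently, with the spread that the same fit had estimated. These percentages hold for such counts and are not the error rates of the real libraries.

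Same-numbered 15 Gy and control libraries deviated together with correlations of -0.0118, 0.0598 and 0.288 over 8248 genes, so the mouse number was not used as a block in the tests reported; the fit with it is an alternative. No 2 libraries of a group agreed within sampling noise (chi-square per degree of freedom 2.71 to 11.9). Alternatives were DESeq2 1.42.0 size factors and its test, library size alone, other filters, the block, the 6 libraries alone and each library left out. Genes were named by a rule: the 15 largest changes in each direction among genes averaging 5 CPM or more, the 4 smallest p in each of the lists, the 15 smallest p in each direction outside the lists, 10 fixed genes and the 8 largest in each interaction. Genes named outside it, chosen after their values were seen, were Mx1, Igtp, Usp18, Bst2, Stat2, Irf9, Isg20, Samhd1, Ly6e, Ifitm3, Ifnar2, Ifnlr1, Ifih1, Ddx58, Cgas, Tmem173, Trp53inp1, Bax, Bbc3, Fas, Cdkn2a, Krt6a, Krt17, Krt5, Krt7, Sqle, Hmgcs1, Scap and Vegfa. The results of some called genes are not reported here.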

Additional observations from a re-analysis of the deposited data

Results flagged for a closer look

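Genes named by the rule whose effect of 15 Gy photons differed between day 6 and day 2 by the edgeR test of the difference itself numbered 10 among those reported, given here as the log2 fold change at day 6 minus that at day 2. Lower at day 6 were Wfdc18 (-2.55), Aqp4 (-2.46), Fos (-2.22), the cadherin Pcdh18 (-1.90), the hyaluronan synthase Has2 (-1.89), Ifi27 (-1.73), the zinc importer Slc39a4 (-1.52) and Cyp51 (-1.29). Higher at day 6 were the insulin receptor substrate Irs2 (1.94) and the protease inhibitor Serpina3m (2.93). Serpina3m had 18.7, 10.9 and 16.8 CPM at 15 Gy, against 18.97, 20.1 and 28.4 CPM in controls, at day 6, and 2.97, 1.76 and 1.37 CPM at 15 Gy, against 23.3, 19.3 and 26.8 CPM in controls, at day 2. The calls for Aqp4, Fos, Pcdh18 and Has2 held in all 12 fits that left out 1 library, those for Wfdc18 and Serpina3m in 11, and those for Slc39a4 in 9, Irs2 in 6, and Cyp51 and Ifi27 in 3.

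Genes whose effect of 15 Gy at day 6 differed between protons and photons numbered 36, given as the proton minus the photon log2 fold change. Among interferon-stimulated, sensing and presentation genes the effect was larger with protons for Ifit3b (3.40), Rsad2 (2.83), Ifit3 (2.80), Ifi203 (2.17), Ifit1 (2.02), Oasl2 (1.65), Mndal (1.42) and Tap1 (1.01). Also higher were Sema3d (3.12), Vcan (2.09), AU018091 (2.02), Skint3 (1.94), Wfdc18 (1.94), Ano3 (1.87), Clu (1.79), Bok (1.24), Tnc (1.15) and Lamb3 (0.86). Lower were Apba3 (-3.86), Sptssb (-3.4), Edn2 (-2.88), Pfn1 (-2.86), Slc7a5 (-2.66), Dll1 (-2.50), Ptk7 (-2.48), Ccl2 (-2.43), Fxyd2 (-2.42), Aqp3 (-2.12), Elf3 (-1.81), Arntl (-1.50), Slc7a11 (-1.49), Trp63 (-0.97), Scd2 (-0.92), Herpud1 (-0.89), Wnt4 (-0.84) and Gclc (-0.75). The calls for Elf3, Sema3d, Apba3, Slc7a5, Dll1 and Ptk7 held in all 12 fits that left out 1 library, and 29 of the 36 calls ended without photon control mouse 1.

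Slc7a5, an amino acid transporter, had 27.4, 19.9 and 6.16 CPM at 15 Gy, against 70.1, 173 and 166 CPM in controls, after protons and 42.4, 26.3 and 37.7 CPM at 15 Gy, against 37.5, 32.2 and 53.9 CPM in controls, after photons. Wfdc18 had 40.5, 72.2 and 69.5 CPM at 15 Gy, against 72.6, 52.4 and 72.8 CPM in controls, after protons and 74.5, 109 and 167 CPM at 15 Gy, against 664, 415 and 395 CPM in controls, after photons, so the photon controls stood above all other groups. Sema3d, a guidance factor, had 26.5, 19.9 and 27.9 CPM at 15 Gy, against 4.09, 7.83 and 6.96 CPM in controls, after protons and 4.83, 4.91 and 4.42 CPM at 15 Gy, against 8.00, 11.04 and 12.7 CPM in controls, after photons.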

How the results depend on the processing

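For 15 Gy against control at day 6, the 285 higher and 313 lower genes became 283 and 306 with DESeq2 size factors, 251 and 257 with library size alone, 258 and 257 with the DESeq2 test, 265 and 295 with a filter of at least 5 CPM, and 338 and 416 in the 6 libraries alone. Without a filter they were 461 and 530, and leaving out 1 library gave 146 to 458 and 125 to 567. The replicate block gave 313 higher and 362 lower. The mouse numbers did not meet the rule for pairing, and 1 of the 3 correlations between same-numbered libraries was above 0.1. For the day 6 minus day 2 effect, 2 upward and 10 downward became 10 and 33 with the DESeq2 test, 81 and 64 without a filter, 3 and 14 with the replicate block, and 0 to 20 and 5 to 30 without 1 library. For the proton minus photon effect, 289 and 210 became 492 and 95 with library size alone, 381 and 523 without a filter, 252 and 177 with the replicate block, and 25 to 576 and 16 to 678 without 1 library. The cause of these shifts was not tested. Of 246 named genes 130 were called, and 94 of these were called under every alternative. Of 4659 values, 4331 kept direction and side of the threshold, 156 fell short of it and 168 newly passed. The other 4 changed sign while not called or had no adjusted p. No result changed direction while called. With 3 mice a group and 2377331 to 4745719 gene counts, small changes were not detectable for every gene, so a gene without a call may still differ.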

Other observations

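Further genes, named here after their values were seen, fall outside the lists. Among lower genes, Sfn (stratifin), a protein of differentiating keratinocytes that p53 can also induce, had 182, 184 and 156 CPM at 15 Gy, against 431, 408 and 379 CPM in controls (log2 fold change -1.22, SE 0.18, adjusted p = 0.000879), and Ppbp, a chemokine best known from platelets, had 196, 240.5 and 215 CPM at 15 Gy, against 613, 645 and 1257 CPM in controls (log2 fold change -1.95, SE 0.36, adjusted p = 0.00497). Epas1, which encodes the hypoxia-inducible factor HIF-2α, had 24.95, 14.2 and 25.6 CPM at 15 Gy, against 53.98, 59.9 and 56.5 CPM in controls (log2 fold change -1.42, SE 0.26, adjusted p = 0.00403). Sostdc1, a secreted antagonist of BMP and Wnt signals, had 171, 178 and 179.9 CPM at 15 Gy, against 315, 364 and 364 CPM in controls (log2 fold change -0.98, SE 0.13, adjusted p = 0.000425), and Tmem97, a sterol-linked membrane protein, had 7.49, 8.13 and 7.28 CPM at 15 Gy, against 17.6, 18.4 and 19.3 CPM in controls (log2 fold change -1.26, SE 0.23, adjusted p = 0.00379). In all 5 genes every irradiated library lay below every control, as in 310 of the 313 genes called lower. The calls held in all 12 fits that left out 1 library.

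Among higher genes, Alox5, which starts leukotriene synthesis, had 7.84, 4.88 and 7.01 CPM at 15 Gy, against 1.31, 1.35 and 1.14 CPM in controls (log2 fold change 2.32, SE 0.37, adjusted p = 0.00156). Cd55, which protects cells from complement, had 22.5, 26.02 and 24.3 CPM at 15 Gy, against 8.71, 5.85 and 13.1 CPM in controls (log2 fold change 1.36, SE 0.24, adjusted p = 0.0036), and Procr, the protein C receptor, had 26.02, 31.1 and 25.1 CPM at 15 Gy, against 13.3, 10.3 and 17.04 CPM in controls (log2 fold change 1.00, SE 0.18, adjusted p = 0.00358). Irradiated libraries lay above controls in each, as in all 285 genes called higher, and the calls held in all 12 fits that left out 1 library.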
